A study of Mus musculus with 4 samples.

Results

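Class IIa histone deacetylases and the MEF2 transcription factors they bind were followed in mouse tibialis anterior (TA) muscle after denervation. The members were chosen by gene symbol, as Hdac4, Hdac5, Hdac7, Hdac9, Mef2a, Mef2c and Mef2d, and all 7 were found among the 13825 genes of the count table. All 7 passed the filter on low counts (10 or more reads on average) and belong to the 13084 genes compared here. There were 4 libraries, all from adult male mice. WS and WD stand for sham and denervated muscle of WT mice, and KS and KD for the same of FGF21KO mice. FGF21KO mice lacked Fgf21 in the whole body, and the WT mice were C57BL/6J per the study's methods, while the background strain of the knockout is not given in the sources used here. Muscles were taken 14 days after a piece of the left sciatic nerve was removed. The opposite leg kept its nerve and served as control, and the methods add that it was operated on without cutting the nerve, so that sham and denervated muscles came from the same animals. RNA of 4 muscles was pooled per condition, so each group is 1 library, no pair of groups can be checked against replicates, and the spread between mice is unknown.

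MEF2 factors are DNA-binding proteins that switch on many genes of the contractile and metabolic machinery of muscle. Class IIa deacetylases have little deacetylase activity of their own, bind MEF2 in the nucleus and recruit corepressors there. Kinases that respond to calcium, energy state or cyclic AMP phosphorylate them, 14-3-3 proteins then hold them in the cytoplasm, and MEF2 is released. In muscle this arrangement ties gene expression to nerve activity, and HDAC4 is known for its part in the response to loss of the nerve. RNA levels do not show how much of these proteins is present, where they lie in the cell or whether they are phosphorylated.

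Total counts ran from 25249879 (WS) to 34141303 (KS). Levels are given as CPM, read counts scaled to library size with TMM factors, and intervals are 95% intervals that cover counting error only. Fgf21 itself was not analysed here, and the knockout was therefore not checked in these libraries. Of 7 muscle fibre markers listed, only Myh1, a fast myosin heavy chain, was in the table, at 15649 to 24300 CPM. The absence of the others from the table was not taken as absence of expression. In addition 4 other fibre genes, picked after their presence was seen (Mylpf, Tnni2, Neb and Pygm), brought the sum to between 38370 and 60627 CPM. The scaling moves all ratios. With total counts only, the log2 ratios of the tested genes had a median of 0.29 in WD vs WS, and the median was 0.36 in KD vs KS, against 0.01 with TMM in both.

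Among the class IIa deacetylases, Hdac4 was the member with the higher level in denervated muscle, and Hdac5, Hdac7 and Hdac9 were lower there in both genotypes. Hdac4, which encodes the deacetylase most studied in denervated muscle, had 1030 reads in WS and 9437 in WD, against 1233 in KS and 9222 in KD. These correspond to 44.3, 289.0, 41.5 and 298.1 CPM. Both denervated libraries stood far above both sham libraries, and the genotypes lay close together on each side. The log2 ratio of denervated over sham was 2.70 in WT (WD vs WS, interval 2.61 to 2.80) and 2.84 in FGF21KO mice (KD vs KS, 2.76 to 2.93), or 6.51-fold and 7.17-fold. Ranked from the highest ratio among the 13084 tested genes, Hdac4 was number 103 in WT mice and number 98 in FGF21KO mice.

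Hdac5, a close relative whose protein also binds MEF2, had 1916 reads in WS and 1248 in WD, against 2305 in KS and 1042 in KD, which are 82.5, 38.2, 77.6 and 33.7 CPM. Each denervated library was below each sham library. The log2 ratio was -1.11 in WT (-1.21 to -1.01) and -1.20 in FGF21KO mice (-1.31 to -1.10), opposite in direction to Hdac4. Hdac9, which also gives rise to a shortened MEF2 repressor that lacks the deacetylase domain, was the least expressed of the 4. It had 223 reads in WS and 182 in WD, against 310 in KS and 172 in KD, or 9.60, 5.57, 10.4 and 5.56 CPM. The log2 ratios of Hdac9 were -0.78 (-1.07 to -0.49) and -0.90 (-1.19 to -0.64). The counts are per gene, so the full-length and shortened Hdac9 transcripts were not separated.

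Hdac7, known for its role in blood vessel endothelium and in lymphocytes, had 734 reads in WS and 408 in WD, against 616 in KS and 377 in KD. At 31.6, 12.5, 20.7 and 12.2 CPM, the denervated libraries were nearly level and the sham libraries were not. The log2 ratio was -1.33 in WT (-1.52 to -1.16) and -0.76 in FGF21KO mice (-0.96 to -0.58).

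**Figure D1:**
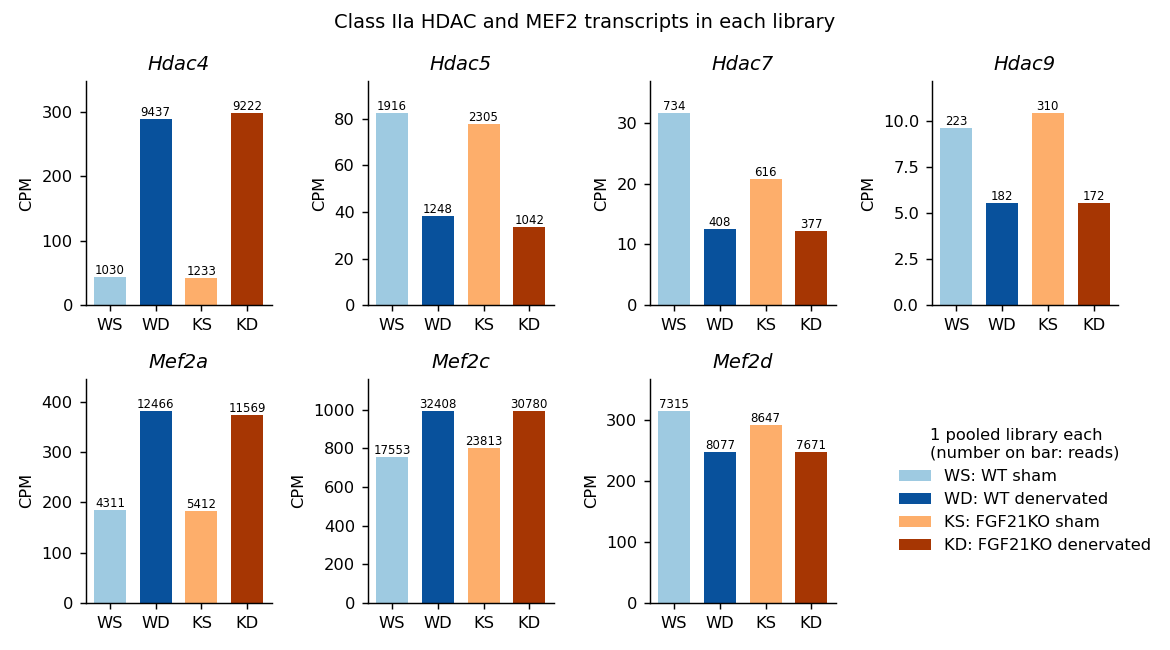
Levels of the 7 members in the 4 libraries. Bars give CPM after TMM scaling (y axis, starting at 0, its own scale in each panel), the number on each bar is the read count, and each bar is 1 pooled library. Hdac4 and Mef2a are higher in WD and KD than in WS and KS, and Hdac5, Hdac7 and Hdac9 are lower.

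Of the MEF2 genes, Mef2a was 2.06-fold higher after denervation in WT and 2.05-fold higher in FGF21KO mice, Mef2c was moderately higher and Mef2d slightly lower. Mef2a, expressed in most adult muscle, had 4311 reads in WS and 12466 in WD, against 5412 in KS and 11569 in KD, or 185.5, 381.8, 182.2 and 374.0 CPM. Sham and denervated libraries did not overlap in CPM, as in every other member. How many of all tested genes separate in this way was not counted. The log2 ratio of Mef2a was 1.04 in both WT (0.99 to 1.09) and FGF21KO mice (0.99 to 1.08). Mef2c, needed in developing muscle and heart, had 17553, 32408, 23813 and 30780 reads in WS, WD, KS and KD. Its CPM were 755.5, 992.6, 801.7 and 994.9, with log2 ratios of 0.39 (0.37 to 0.42) and 0.31 (0.29 to 0.34). Mef2d, broadly expressed and alternatively spliced in muscle, had 7315, 8077, 8647 and 7671 reads, or 314.8, 247.4, 291.1 and 248.0 CPM. Its log2 ratios were -0.35 (-0.39 to -0.30) and -0.23 (-0.28 to -0.19). With total counts only, the ratio of Mef2d was -0.06 in WT and 0.13 in FGF21KO mice, so its direction rests on the scaling.

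The promoters of 3 members are shown because one of them, Mef2a, rises, another, Hdac5, falls, both hold a MEF2 site, and Hdac4, the member with the largest change, holds none in this window. Sequences are from RefSeq on GRCm38.p6, from 250 bases before to 20 bases after the annotated start, 5′ to 3′ on the minus strand. Capitals mark the MEF2 consensus site. The windows are chr7:67372839-67373108 for Mef2a, chr11:102230153-102230422 for Hdac5 and chr1:92180322-92180591 for Hdac4.
Mef2a: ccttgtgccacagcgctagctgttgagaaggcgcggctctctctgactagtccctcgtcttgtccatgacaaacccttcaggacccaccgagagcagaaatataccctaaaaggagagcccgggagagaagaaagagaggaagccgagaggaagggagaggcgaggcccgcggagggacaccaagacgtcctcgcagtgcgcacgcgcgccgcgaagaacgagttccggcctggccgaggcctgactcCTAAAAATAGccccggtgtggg
Hdac5: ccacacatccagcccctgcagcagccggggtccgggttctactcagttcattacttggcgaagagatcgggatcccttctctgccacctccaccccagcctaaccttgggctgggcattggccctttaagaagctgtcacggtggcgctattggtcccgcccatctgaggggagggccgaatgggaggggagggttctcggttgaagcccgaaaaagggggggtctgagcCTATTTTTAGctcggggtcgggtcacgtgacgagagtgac
Hdac4: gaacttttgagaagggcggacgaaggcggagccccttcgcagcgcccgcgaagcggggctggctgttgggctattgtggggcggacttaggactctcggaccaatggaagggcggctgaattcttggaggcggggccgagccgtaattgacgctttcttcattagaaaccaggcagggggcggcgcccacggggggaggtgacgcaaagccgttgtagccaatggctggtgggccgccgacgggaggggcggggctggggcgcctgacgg

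The MEF2 consensus, searched on both strands, begins 2 bases before the annotated start in Mef2a and 20 bases before it in Hdac5. All 7 members matched the promoter table, with 13 windows of 300 bases in all, since Hdac7, Hdac9 and Mef2c have several annotated starts, and 2 of the 13 held the site. It was present in 3.19% of all 32851 windows and in 1.68% of the 12681 windows of genes in the count table. The E-box CANNTG, the sequence bound by myogenin and its relatives, was in 7 of the 13 member windows and in 72.3% of all windows (63.6% for genes in the count table), and the windows of Hdac4, Mef2a and Mef2d had none. E-boxes and MEF2 sites did not overlap in these windows. These matches are descriptions of the sequence, and binding was not measured.

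The make-up of the class IIa family in RNA differed between sham and denervated muscle. The study reports the other class IIa deacetylases, with HDAC5 and HDAC7 measured as protein, as raised by denervation. Hdac5 and Hdac7 RNA was lower here. Per kb of exon (the union of exons in GENCODE M21), Hdac5 was the highest of the 4 genes in both sham libraries, at 9.39 CPM per kb in WS and 8.84 in KS. Hdac7 followed at 4.68 and 3.07, then Hdac4 at 2.80 and 2.62, and Hdac9 at 0.65 and 0.71. With the longest transcript as length, Hdac4 was above Hdac7 in KS (5.12 and 4.00 CPM per kb) but not in WS (5.47 and 6.10). In the denervated libraries Hdac4 came first, at 18.3 CPM per kb in WD and 18.9 in KD, above Hdac5 at 4.35 and 3.84. Hdac4 made up 16.0% of the family sum in WS and 17.2% in KS, and 73.5% in WD and 75.8% in KD. The family sum itself was 1.42 times as high in WD as in WS, and KD exceeded KS 1.63 times. These ratios rest on the exon lengths and on TMM scaling. The class IIa and MEF2 sums were not recomputed with other choices.

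The summed level of the MEF2 family per kb was 113.3 CPM per kb in WS and 112.1 in KS, and 130.5 in WD and 130.2 in KD. Mef2a took 11.2% of it in WS and 19.9% in WD, and 11.1% in KS and 19.6% in KD. The share of Mef2d was 46.4%, 31.7%, 43.4% and 31.8% in the same order, and that of Mef2c lay between 42.4% and 48.6%. Mef2d was above Mef2c per kb in WS, but with the length of the longest transcript in place of the union of exons Mef2c took 56.7% there, so their order in WS depends on the length used. In KS Mef2c was above Mef2d with both lengths.

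**Figure D2:**
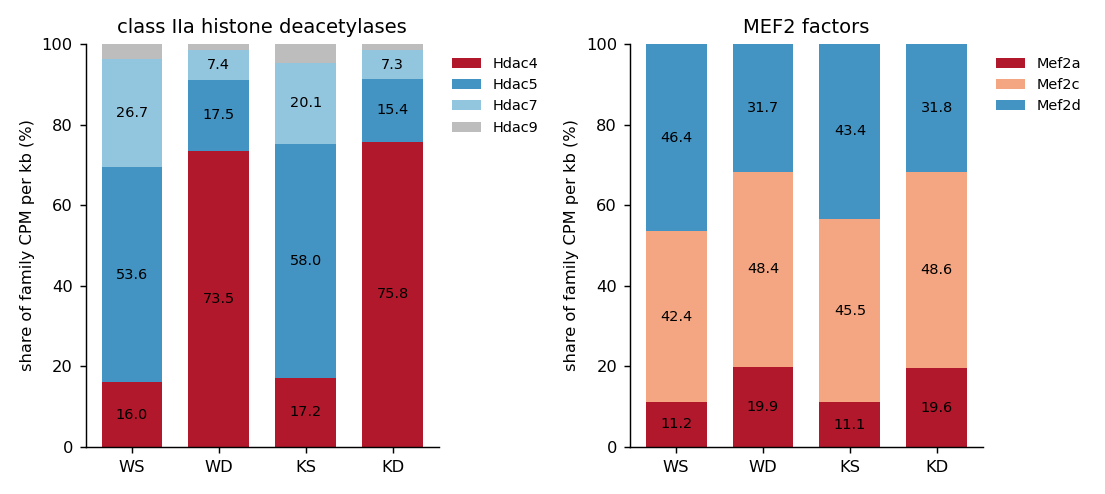
Share of each gene in its family's summed level. The y axis is the percentage of summed CPM per kb of exon, and each bar is 1 library. Hdac4 is between 16.0% and 17.2% of the class IIa sum in sham muscle and between 73.5% and 75.8% in denervated muscle.

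The effect of denervation was tested by fitting genotype and surgery as additive terms to the 4 libraries with edgeR's quasi-likelihood test and Benjamini-Hochberg adjustment over all tested genes. The model sets the 2 sham libraries against the 2 denervated ones, and its residual is the difference in response between genotypes. Genes were called where the adjusted p-value was under 0.05 with a change of 2-fold or more, the cut-off the study used. The model called 4 of the 7 members, against 13.1% of all tested genes. Of these 2 rose, as did 6.84% of all tested genes, and 2 fell, as did 6.24%. Hdac4 rose by 2.78 on the log2 scale (adjusted p = 4.54e-22) and Mef2a by 1.04 (adjusted p = 3.78e-13). Hdac5 fell by 1.16 (adjusted p = 5.54e-13) and Hdac7 fell by 1.06 (adjusted p = 2.61e-08). The standard errors of these 4 values in DESeq2's fit of the same model were 0.10, 0.09, 0.12 and 0.20. Because the RNA was pooled, neither the p-values nor the standard errors measure the spread between mice.

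The other 3 members passed the adjusted p-value but not the fold. In the edgeR fit Hdac9 had a log2 fold change of -0.85 (adjusted p = 4.81e-05), Mef2c of 0.35 (adjusted p = 0.000169) and Mef2d of -0.29 (adjusted p = 0.00101). All 7 thus passed on the adjusted p-value alone, as did 53.5% of all tested genes, with 3 members higher (26.6% of all tested genes) and 4 lower (27%). With total counts only, Hdac5 (-0.84) and Hdac7 (-0.74) no longer reached the fold of the criterion. By size alone, 4 members were 2-fold or more apart in WT, where 14.8% of all tested genes were, and 3 in FGF21KO mice, where 13.6% were. In WT 2 members were higher and 2 lower, against 7.18% and 7.61% of all tested genes. In FGF21KO mice 2 were higher and 1 lower, against 7.51% and 6.1%. Among all tested genes 940 were higher and 996 lower in WT, and 982 and 798 in FGF21KO mice. With total counts only the splits were 1633 and 486, and 1948 and 342.

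**Figure D3:**
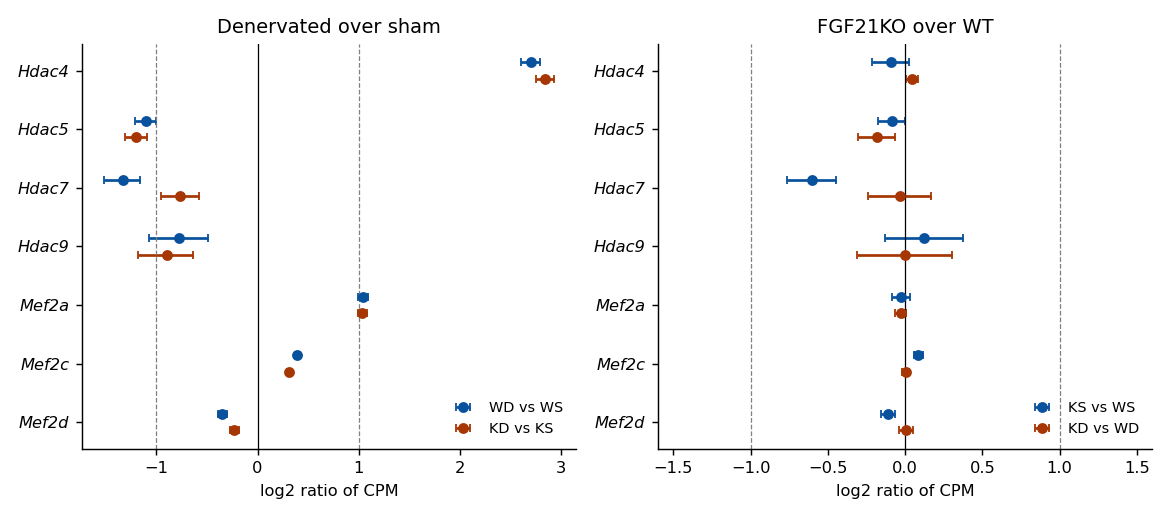
Log2 ratios of CPM for each member. The left panel gives denervated over sham in WT (WD vs WS) and FGF21KO (KD vs KS) and the right panel FGF21KO over WT in sham (KS vs WS) and denervated muscle (KD vs WD), with 95% bars for counting error only and dashed lines at -1 and 1. Hdac4 lies near 2.70 and 2.84 on the left, and on the right Hdac7 in sham muscle (-0.61) lies farthest from 0.

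The second question was whether loss of Fgf21 altered these transcripts. Between genotypes no member was 2-fold apart in sham or denervated muscle, where 2.04% and 1.55% of all tested genes were (0.887% and 0.841% higher in FGF21KO mice, 1.15% and 0.711% lower). For Hdac4 the log2 ratio was -0.09 in KS vs WS (-0.22 to 0.03) and 0.04 in KD vs WD (0.003 to 0.09). Hdac5 had ratios of -0.09 and -0.18, Hdac9 of 0.12 and -0.004, Mef2a of -0.03 and -0.03, Mef2c of 0.09 and 0.003, and Mef2d of -0.11 and 0.003. Those of Hdac7 were -0.61 (-0.76 to -0.45) in sham and -0.04 (-0.24 to 0.17) in denervated muscle. In the additive model 0 members were called for genotype by edgeR's quasi-likelihood test, against 0.176% of all tested genes (0.0611% higher). DESeq2's Wald test called 0 members, against 13 of the 13084 tested genes. On the adjusted p-value alone 0 members passed in edgeR's test, against 0.673% of all tested genes. The lowest p-value was that of Hdac7 at an unadjusted 0.00967 (adjusted p = 0.35, log2 fold change -0.34), the 1 member under an unadjusted 0.05, where 7.93% of all tested genes were.

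The difference in the response to denervation, KD vs KS minus WD vs WS, could not be tested because no residual degree of freedom is left. For Hdac4 it was 0.14 on the log2 scale (counting interval 0.01 to 0.27), for Hdac5 -0.09 (-0.24 to 0.05) and for Hdac9 -0.12 (-0.51 to 0.27). For Mef2a it was -0.004 (-0.07 to 0.06), for Mef2c -0.08 (-0.12 to -0.05) and for Mef2d 0.12 (0.05 to 0.18). Hdac7 had the widest gap, 0.57 (0.32 to 0.82). These intervals leave out the spread between mice, which 1 library per group does not give.

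Hdac7 is known from endothelium, and the vessel markers are given beside it. The 6 endothelial markers, all present, summed to 426 CPM in WS and 201 in WD, against 344 in KS and 190 in KD. In denervated muscle 6 of 6 were lower in each genotype, as were 6477 of the 13084 tested genes in WT and 6433 in FGF21KO mice. Cdh5, the cadherin of endothelial junctions, was at 159.1, 66.4, 121.6 and 58.3 CPM. Kdr, a receptor for vascular endothelial growth factor, was at 95.1, 39.4, 74.2 and 40.6. Cdh5 and Kdr had the largest falls in WT among the 6, and Emcn had the smallest. All of these are named after their values were seen. Emcn had log2 ratios of -0.22 in WT, -0.56 in FGF21KO mice and -0.06 in KS vs WS. In KS vs WS 6 of 6 endothelial markers were also lower, as were 6580 of the 13084 tested genes. The log2 ratio of the endothelial sums was -0.31, beside -0.61 for Hdac7. Smooth muscle and pericyte markers (4 of 4 present) summed to 678, 284, 630 and 280 CPM. In KS vs WS 0 of these 4 were higher, and the log2 ratio of their sums was -0.11. Their part in the values of Hdac7 was not tested, and in bulk tissue fewer cells of a type cannot be told apart from less RNA per cell.

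Of the other cell types, the macrophage marker sum was higher in denervated muscle, and the fibroblast and fibre sums were lower, as were the vessel sums. Macrophage markers (5 of 5) summed to 12.5 CPM in WS and 35.3 in WD, against 12.2 in KS and 33.5 in KD. The fibroblast and fibro-adipogenic progenitor markers (5 of 5) summed to 580, 376, 553 and 395 CPM. The 5 fibre genes summed to 60627, 38370, 58084 and 39931 CPM, lower in denervated muscle by 0.66 and 0.54 on the log2 scale. Of these, Neb did not share the fall, with log2 ratios of -0.04 in WT and 0.10 in FGF21KO mice. The single adipocyte marker present, Cidec, was at 0.81 to 1.85 CPM, and the satellite cell markers were not analysed here. Cd68, a lysosomal protein of macrophages, had log2 ratios of 3.35 in WT and 3.24 in FGF21KO mice, above those of Hdac4, at 23 to 350 reads. Mrc1, the mannose receptor, made up the most of the sum and had 1.15 and 1.09. Cd68 and Mrc1 are named after their values were seen. How far each moves the member values was not tested.

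**Figure D4:**
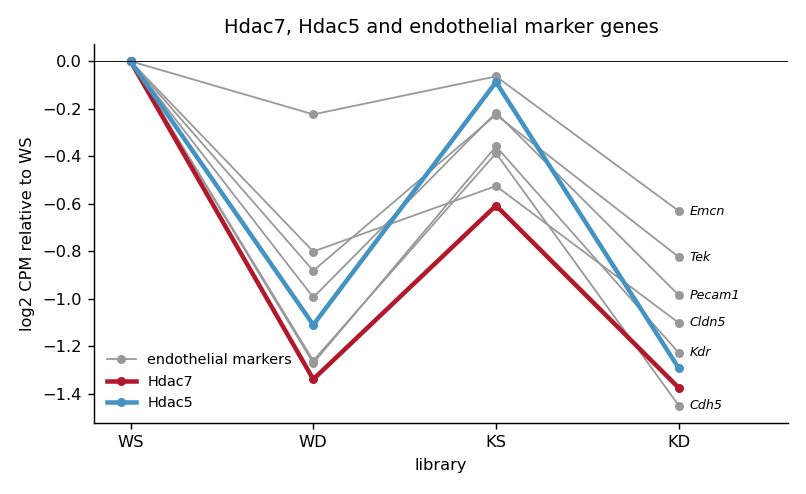
Hdac7 and Hdac5 beside the 6 endothelial markers. The y axis is log2 CPM relative to WS and the x axis the 4 libraries, with lines drawn only to follow a gene. Hdac7 is at -0.61 in KS, where Hdac5 is at -0.09 and the endothelial markers lie between -0.52 and -0.06.

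The genes whose profiles lay nearest to each member were found by the Euclidean distance between log2 CPM centred over the 4 libraries, among the 11316 genes averaging 50 reads or more. Nearest to Hdac4 were Serpinb8 (distance 0.11), Tgif1 (0.12), a repressor of TGF-beta responses, and Myl12a (0.13), a myosin regulatory light chain. Nearest to Hdac5 were Adgrl2 (0.02), Pfkm (0.02), the muscle phosphofructokinase, and Cd38 (0.03). Pfkm had log2 ratios of -1.11 in WT and -1.18 in FGF21KO mice. Those nearest to Hdac7 were Ppp1r16b (0.06), Ceacam1 (0.08) and Dock6 (0.08), and those nearest to Hdac9 were Pgm2, Selenow and Ctdnep1 (0.03 to 0.04). Mef2a was nearest to Nsun2, Tmbim1 and Wdr46, Mef2c to Aurkaip1, Rhoa and Rnf4, and Mef2d to Mon2, Ranbp3 and Axin1, all at 0.01 to 0.03. With 4 libraries and 2 surgery groups, such likeness is a description, and many genes share a profile.

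The remaining genes of the pathway were taken from lists written for it, and calls are those of the same edgeR model. Of the 7 other histone deacetylases 0 were called by the full criterion, against 13.1% of all tested genes. DESeq2's Wald test also called 0 of the 7, against 1408 of the 13084 tested genes. On the adjusted p-value alone 3 passed in edgeR's test and 2 in DESeq2's, against 53.5% and 35.9% of all tested genes. Under an unadjusted p of 0.05 were 3 in both, against 58% and 42.3%. Hdac6, a cytoplasmic deacetylase that acts on tubulin, had a log2 fold change of 0.74 and Hdac11 of 0.45. Hdac3, the nuclear enzyme recruited by class IIa proteins through NCOR, had -0.28 and Hdac10 -0.13, the latter past neither threshold. All 7 of these were between -0.28 and 0.74, whereas Hdac4 was at 2.78. Of 9 corepressor partners 0 were called by either tool, against 13.1% of all tested genes in edgeR's test. The 6 under an unadjusted p of 0.05 in edgeR's test (58% of all tested genes) also passed the adjusted p-value. Gps2, a subunit of the NCOR complex, had -0.67 and Ncor1 itself -0.33, and Ankra2, an ankyrin-repeat protein that binds class IIa deacetylases, had 0.47 and Tbl1xr1 0.38.

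Of 21 kinases listed for class IIa proteins 17 were tested, and 3 rose and 1 fell, against 6.84% and 6.24% of all tested genes. Sik1, a salt-inducible kinase that phosphorylates class IIa deacetylases, had 194 reads in WS and 2902 in WD, against 233 in KS and 2657 in KD, and rose by 3.43 on the log2 scale (adjusted p = 4.54e-22 in edgeR's test). Camk2d rose by 1.54 and Camk2b by 1.09, the latter named after its values were seen. Both encode subunits of calmodulin-dependent kinase II, which docks on HDAC4. Prkaa2, the AMPK catalytic subunit that predominates in muscle, fell by 1.20, from 10146 reads in WS to 6848 in WD and from 13667 in KS to 5645 in KD. Camk2g had a log2 fold change of -0.90. The median of the 17 kinases was -0.27, beside 0.01 for all tested genes.

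Among 13 genes for 14-3-3 proteins, protein phosphatase subunits and nuclear export 0 were called by either tool, against 13.1% of all tested genes in edgeR's test. The 8 under an unadjusted p of 0.05 in edgeR's test (58% of all tested genes) also passed the adjusted p-value. Ppp2ca, a catalytic subunit of phosphatase PP2A, had 0.46, Ppp2cb -0.42 and the scaffold Ppp2r1b -0.96. Sfn, a 14-3-3 protein of epithelia at 24 to 82 reads, was higher in WD than in WS by 1.23 on the log2 scale, and in KD than in KS by 0.12, and did not pass the adjusted p-value. Of 14 cofactors and activators of MEF2, 11 were tested and 1 fell, against 6.24% of all tested genes. That was Mapk14, the p38 alpha kinase that phosphorylates MEF2, which fell by 1.16, while Ppp3cb, a catalytic subunit of calcineurin, had -0.95. Kat2b, an acetyltransferase, had 0.29 and Ppp3ca 0.17.

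**Figure D5:**
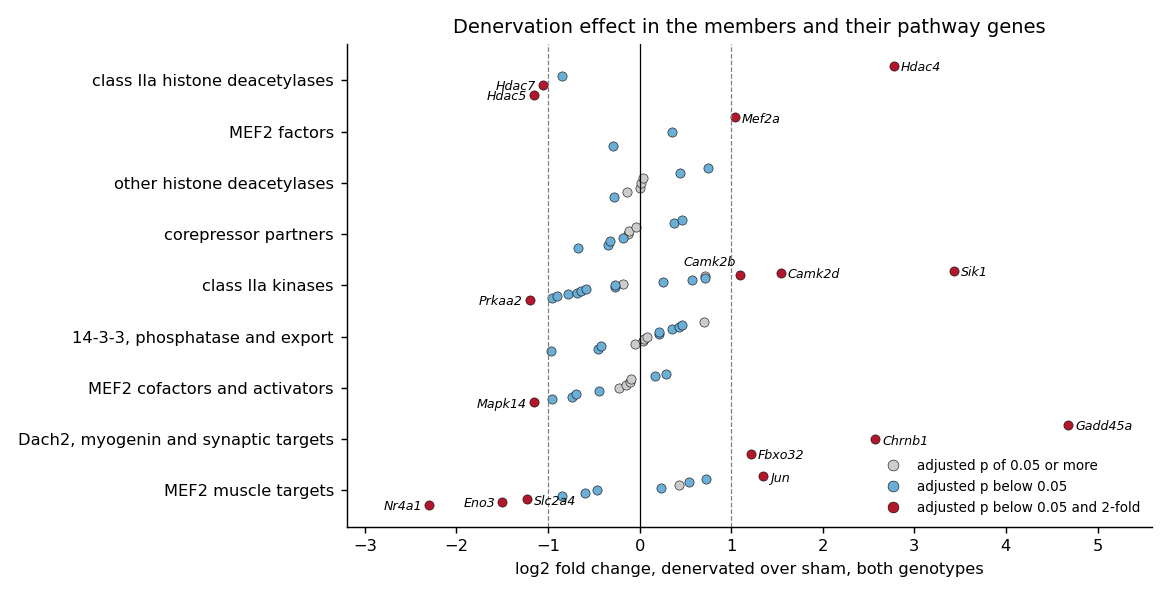
Denervation effect on the members and their pathway genes. Each point is 1 gene, the x axis is the log2 fold change of denervated over sham muscle in edgeR's additive model, rows are lists, colours give the call, and dashed lines mark -1 and 1. Hdac4 (2.78) is the highest member, Sik1 (3.43) the highest kinase and Nr4a1 (-2.30) the lowest of the MEF2 targets.

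Genes listed downstream of HDAC4 and of MEF2 were examined last. HDAC4 is known to repress Dach2, a repressor of myogenin, and through it to raise acetylcholine receptor genes and atrophy ligases. Of the 11 genes on this list 3 were analysed here, and 3 of 3 rose, against 6.84% of all tested genes. Dach2 and the gene of myogenin were not among the 3, so the steps between HDAC4 and these genes have no values here. The list was written with earlier results of these data known, so these rises are not independent evidence for that route. Gadd45a, a stress gene induced in denervated muscle, rose by 4.68, Chrnb1, the beta subunit of the acetylcholine receptor, by 2.57, and Fbxo32, the ubiquitin ligase atrogin-1, by 1.21. Their ratios between genotypes lay between -0.11 and 0.11.

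Of 17 MEF2 targets in muscle, 11 were tested, 1 rose and 3 fell, against 6.84% and 6.24% of all tested genes. Jun, an AP-1 factor, rose by 1.34, and Xirp1, a protein of stressed sarcomeres, had 0.73. Nr4a1, an orphan nuclear receptor responsive to nerve activity, fell by 2.30, from 4365 reads in WS to 1808 in WD and from 6608 in KS to 942 in KD. Slc2a4, the glucose transporter GLUT4, fell by 1.23 and is named after its values were seen. Eno3, the muscle enolase, was the other gene that fell, with log2 ratios of -1.37 in WT and -1.63 in FGF21KO mice. The median of these targets was -0.46, beside 0.01 for all tested genes. For Nr4a1 the log2 ratio was -1.76 in WT and -2.87 in FGF21KO mice, a difference that was not tested.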

How the data were processed

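RNA of 4 pooled TA muscles per condition was sequenced as TruSeq Stranded mRNA libraries. The authors deposited raw read counts per gene, and only genes with at least 1 read in each library are listed. The second table, which the authors deposited on a log2 scale and named for FPKM, holds counts multiplied by a library factor, with 1 added before taking log2, and no length correction. The labels name FastQC and GRCm39. The aligner and counter are not given in the sources used here.

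Genes averaging 10 or more reads were kept. TMM scaling, log2 CPM (prior count 2) and the additive quasi-likelihood model used edgeR 4.0.16 in R 4.3.3, with DESeq2 1.42.0 as an alternative. The common biological coefficient of variation was 0.068, and 1 residual degree of freedom remained. Pairs of single libraries were given no p-value. Counting intervals (exact binomial for ratios, normal for differences of ratios) used scipy 1.17.1. Exon lengths were taken from GENCODE M21 on GRCm38 and used only as lengths. Scripts were tested on simulated data.

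Named genes are the members, the 2 highest and 2 lowest of each pathway list in WD vs WS, and the 3 nearest profiles per member. The members and lists were chosen with earlier results of these data known, so the lists' directions are not independent evidence. Alternatives were other scalings, filters, prior counts, the second table, adjusted p only, a single-factor fit, DESeq2's Wald test and, chosen after seeing the data, the longest transcript as length. Listed genes that were not in the table were not analysed here, and their absence was not taken to mean that they had no reads. One marker list is not reported here.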

Additional observations from a re-analysis of the deposited data

How the results depend on the processing

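No paired analysis was possible because the labels number no replicates, beyond the additive model itself, which sets sham against denervated muscle within each genotype. No replicate could be left out. Among the counts, differences and shares recomputed under the alternatives, 117 stayed close to the value reported and 24 moved. The margin for counts was wide. With a prior count of 5, 180 genes at least 2-fold apart in sham muscle counted as close to 267, and 0 members beside 0 also counted as close. For single members, 271 values stayed within the counting interval or kept their call, 16 moved, 2 reversed, 2 lost the call and 3 gained it. Why each moved was not tested. By construction, a stricter filter leaves fewer genes, adjusted p only drops the fold, and total counts only rescales all genes of a library alike. The second table adds 1 to counts that were multiplied by library factors of 0.030 to 0.043. Total counts only left 2 members called for denervation instead of 4, while the genes called numbered 2028 of 13084 instead of 1711. Of the 2028, 1704 were higher and 324 lower. Total counts only gave Mef2d a log2 fold change of 0.031 (adjusted p = 0.70 in edgeR's test) in place of -0.29. It also raised the difference in response of every member, to 0.21 for Hdac4, -0.020 for Hdac5, 0.64 for Hdac7, -0.050 for Hdac9, 0.071 for Mef2a, -0.0077 for Mef2c and 0.19 for Mef2d. On the adjusted p-value alone, 7 members and 7003 genes passed for denervation and 88 genes for genotype. The genotype effect was called for 23 genes, for 15 among genes averaging 50 or more reads, 13 with DESeq2's Wald test and 0 in edgeR's single-factor fit, where 51 genes were under an unadjusted p of 0.05 and Hdac4 had 0.026 in place of -0.02. With the second table the genes at least 2-fold apart numbered 1188 after denervation in WT and 1117 in FGF21KO mice (1936 and 1780 as reported), and between genotypes 29 in sham and 25 in denervated muscle (267 and 203 as reported). The latter were 68 and 46 among genes averaging 50 or more reads. The longest transcript as length gave Hdac4 a share of 19.5% in WS and 77.8% in WD, with 20.7% in KS and 79.9% in KD, and Mef2c 56.7%, 57.9%, 59.5% and 58.3%. At 172 to 310 reads Hdac9 had the widest counting intervals of the members. Leaving out a mouse or a muscle was not possible, since the RNA was pooled.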
